A study of Mus musculus with 3 samples.

Results

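The genes described here are 10 regulators and effectors of fat cell formation and lipid handling, Pparg, Cebpa, Cebpb, Cebpd, Zfp423, Fabp4, Fabp5, Lpl, Plin2 and Cd36. They were chosen by name, and every probe set with exactly 1 of these symbols in the array annotation was taken. They had 19 probe sets, and the table held 18193 genes in all. RNA came from MC3T3-E1, an immortal mouse preosteoblast line from the calvaria of strain C57BL/6. Cells were grown for 3 days at 37 °C on one of 3 media, with 1 Affymetrix 3' array for each. Normal medium was MEM α plus 10% fetal bovine serum. To this, osteogenic medium added beta-glycerophosphate at 10 mM and ascorbic acid 2-phosphate at 150 µM, and the third was osteogenic medium containing 0.6% dimethyl sulfoxide (DMSO). None of the media as described in the labels held an adipogenic hormone mixture. With 1 array per medium there was no test, the spread between cultures is unknown, and every value below describes these arrays.

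Osteoblasts and adipocytes come from shared mesenchymal progenitors. In the textbook cascade of fat cell formation, the C/EBP factors beta and delta (Cebpb, Cebpd) act early and switch on the nuclear receptor PPAR gamma (Pparg) and C/EBP alpha (Cebpa). These then maintain each other and drive genes of fatty acid uptake and storage such as Fabp4, Lpl and Cd36. Zfp423 is a zinc finger factor that commits progenitors to the fat lineage and raises Pparg. Fabp5 and Plin2, in contrast, are also made by many cells that are not adipocytes.

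Expression is given in log2 units, so a difference of 1 is a 2-fold change. The pooled median of all probe sets over the 3 arrays, 3.54, served as a floor. Values at or under it were taken as too low to order, and a change was computed where at least 1 of the compared arrays was above it. Of the 10 members, 4 were under the floor on all 3 arrays in every probe set, namely Pparg, Fabp4, Lpl and Cd36. The other 6, Cebpa, Cebpb, Cebpd, Zfp423, Fabp5 and Plin2, were above it on all 3 arrays. In probe sets, 10 of 19 were under and 9 above. Thus the receptor at the centre of the cascade and its best known fat cell targets were not above the floor in any medium, while both early C/EBP factors, C/EBP alpha, Zfp423 and the 2 broadly expressed lipid proteins were.

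**Figure D1:**
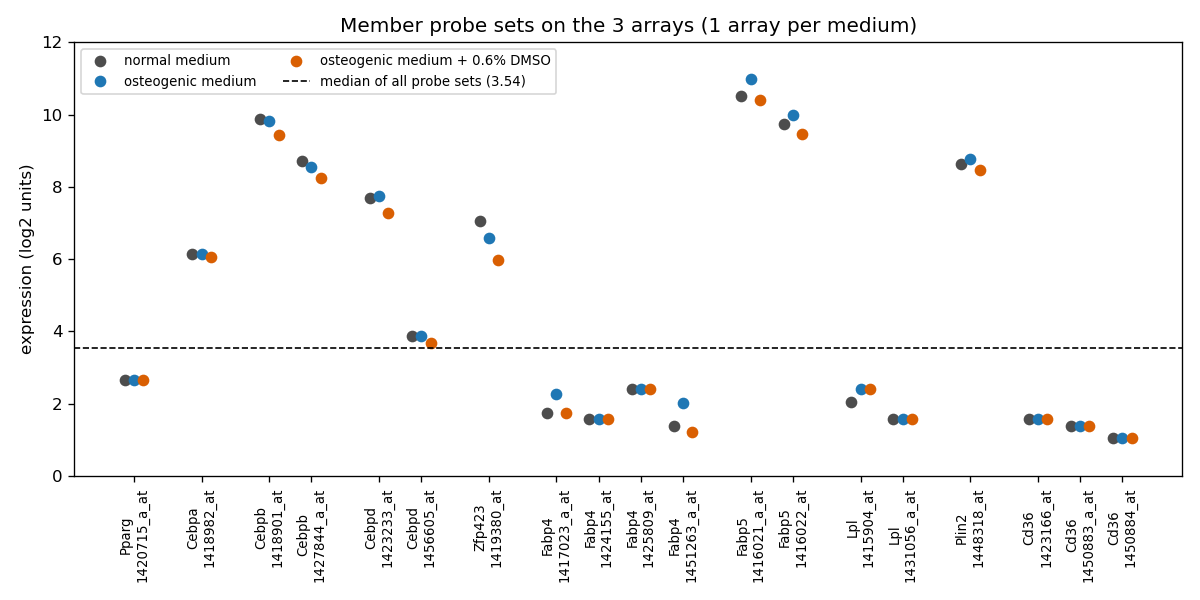
Expression in log2 units (vertical axis) of the 19 member probe sets, named below by gene and probe set, with 1 point per array: grey normal medium, blue osteogenic medium, orange osteogenic medium with DMSO. The dashed line is the floor of 3.54. Pparg, Fabp4, Lpl and Cd36 lie under it throughout, and in the 9 probe sets above it the orange point is the lowest.

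RefSeq upstream sequences (GRCm38.p6) were matched by symbol for 6 of the 10 members, Pparg, Cebpa, Cebpb, Zfp423, Plin2 and Cd36. Fabp4, Fabp5, Cebpd and Lpl had no entry. The 250 bases before the transcript start were searched, and 3 measured regulators are shown, because 2 of them were lower with DMSO (Zfp423 and Cebpb) and the third barely differed (Cebpa). Both Zfp423 windows lie inside the RefSeq gene, chr8:87661810-87962053 on the minus strand, before 2 different starts, and only the 30 bases around their matches are given, chr8:87959708-87959737 and chr8:87804456-87804485. The Cebpb window is chr2:167688665-167688914 and the Cebpa window chr7:35119043-35119292, both on the plus strand, each ending at the base before the gene. Capitals mark matches, on either strand, to AGGTCA (the half-site bound by PPAR and other nuclear receptors), TTGCNNAA (a C/EBP-type site), TGACGTCA (the cyclic AMP response element) or TATAAA (the TATA box).
Zfp423 upstream start, 30 bases: gcctgcaaactTTGCACAAaaatccggcaa
Zfp423 downstream start, 30 bases: atcccgtggctgAGGTCAcccgtgggccag
Cebpb: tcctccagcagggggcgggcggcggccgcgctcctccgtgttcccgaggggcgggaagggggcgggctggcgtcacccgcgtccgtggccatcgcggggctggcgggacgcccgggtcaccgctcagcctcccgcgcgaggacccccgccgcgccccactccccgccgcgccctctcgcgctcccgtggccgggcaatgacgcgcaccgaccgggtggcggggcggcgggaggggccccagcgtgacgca
Cebpa: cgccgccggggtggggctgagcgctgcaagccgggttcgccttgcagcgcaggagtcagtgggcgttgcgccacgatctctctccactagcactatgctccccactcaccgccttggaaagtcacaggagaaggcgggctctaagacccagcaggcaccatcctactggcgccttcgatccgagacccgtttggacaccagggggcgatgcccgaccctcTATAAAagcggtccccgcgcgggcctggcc

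The upstream Zfp423 window held 1 C/EBP-type match, TTGCACAA, whose first base lay 131 bases before the start, and the downstream one held 1 half-site at 34 bases. The Cebpa window held a TATA box 30 bases before the start. The Cebpb window, of which 81.6% of bases were G or C, held none of these letters. Among 32817 windows of this length, 9.57% held the C/EBP-type letters, 14.03% the half-site, 12.4% the TATA box and 1.55% the cyclic AMP element. Of the members not printed, the 3 windows of Pparg held 2 half-sites, 1 TATA box and, in the third, 2 C/EBP-type matches. Plin2 and Cd36 held 1 half-site each, on the opposite strand. A direct repeat of 2 half-sites spaced by 1 base, AGGTCANAGGTCA, the form PPAR prefers, was in none of the 9 member windows and in 0.0335% of all windows. A match describes the letters only.

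Pparg, measured by 1 probe set, stood at exactly 2.67 on all 3 arrays. That value was held on at least 1 array by 952 probe sets, so it carries no level of its own. Cd36, a fatty acid transporter of adipocytes, macrophages and endothelium, was equal across arrays in all 3 of its probe sets, at 1.56, 1.38 and 1.04. Lpl, the lipase that frees fatty acids from lipoproteins, was at 2.05 in normal medium and 2.41 in both osteogenic media by one probe set and at 1.56 everywhere by the other. Fabp4, the fatty acid binding protein of adipocytes, had 4 probe sets with highest values of 2.27, 1.56, 2.41 and 2.02. In 2 of these, the osteogenic array without DMSO was the highest of the 3 (2.27 against 1.75 and 1.75, and 2.02 against 1.39 and 1.20), all under the floor. No change is given for these 4 genes.

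The mature fat cell was therefore checked with further markers. Of 15 genes fixed as adipocyte differentiation markers, 13 had a probe set and 9 of those were under the floor on all arrays. Adiponectin (Adipoq), leptin (Lep), the lipid droplet proteins Cidec and Cidea, and Ucp1 were among the 9. The 4 above it were Agpat2, Slc2a4, Lipe and Retn. Agpat2, an enzyme of phospholipid and triglyceride synthesis, was at 7.17, 7.02 and 7.03, and the others lay between 3.83 and 4.06. The mean of the 4 was 4.71 in normal medium, 4.71 in osteogenic medium and 4.73 with DMSO, and none changed 1.5-fold. The labelled cell type was checked the same way. All 8 osteoblast genes with a probe set, out of 12, were above the floor on every array, with Col1a1 at 12.28, 12.32 and 12.50 and Sp7 at 6.42, 7.30 and 7.72.

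Zfp423 was lower with osteogenic medium and lower again with DMSO. Its single probe set was at 7.07 in normal medium, 6.58 in osteogenic medium and 5.98 with DMSO. The difference was -0.49 for osteogenic against normal medium, which is 1.40-fold lower, and -0.60 for DMSO within osteogenic medium, which is 1.51-fold lower. Against normal medium, the DMSO culture was 2.12-fold lower (-1.08). With a call set at 1.5-fold, the second and the last of these differences were called and the first was not. No second probe set was available for Zfp423, and the value 5.98 was held exactly on at least 1 array by 119 probe sets, its own included. The call within osteogenic medium lay near its limit of 0.58. It was lost when arrays were quantile normalized (-0.57) or centred on the hybridisation spikes (-0.57), RNAs added in known amount, which moved the first difference to -0.65. The difference against normal medium ranged from -1.22 to -1.05 over 8 alternatives.

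Cebpb was at 9.88 in normal medium, 9.82 in osteogenic medium and 9.43 with DMSO. Its second probe set read 8.71, 8.54 and 8.25. The media without DMSO were close in the first, and the DMSO array was the lowest in both. With DMSO the difference was -0.39 (1.31-fold lower) in the first and -0.29 in the second. Cebpd, the partner of Cebpb in early adipogenesis and a gene induced by inflammatory and glucocorticoid signals, was at 7.70, 7.73 and 7.27. It was 1.38-fold lower with DMSO (-0.47), and its second probe set, close to the floor at 3.87, 3.87 and 3.69, differed by -0.18. Taken as the mean of its probe sets, Cebpd differed by -0.32. As deposited, neither gene reached 1.5-fold in any comparison. Under spike centring, Cebpb passed it against normal medium (-0.59, limit 0.58 in size). Cebpa, the factor that maintains the mature fat cell and also acts in other lineages, was at 6.15, 6.15 and 6.06. Its difference with DMSO, -0.09, was the smallest of the measured members. The Cebpa value in normal and osteogenic medium, 6.149, was also held exactly by Adamts9 in osteogenic medium, so its equality there is no sign of a stable level.

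Fabp5, which carries fatty acids in the cytoplasm and to nuclear receptors, was the measured member with the largest increase in osteogenic medium. It was at 10.51 in normal medium, 10.99 in osteogenic medium and 10.42 with DMSO. The second probe set gave 9.75, 9.98 and 9.47. Both placed osteogenic medium highest and DMSO lowest. The difference for osteogenic medium was 0.48 (1.39-fold higher) in the first probe set and 0.23 in the second. With DMSO it was -0.57 (1.48-fold lower) and -0.51, just under the 1.5-fold call, which it passed under cyclic loess scaling (-0.59). Against normal medium, the DMSO culture differed by -0.09 and -0.28. Fabp5 has closely similar copies in the mouse genome, and whether its probe sets also read them was not tested.

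Plin2, the coat protein of lipid droplets in most cell types, had the same order of media as Fabp5. Its single probe set was at 8.63 in normal medium, 8.78 in osteogenic medium and 8.46 with DMSO. It was higher by 0.16 in osteogenic than in normal medium and lower by 0.32 with DMSO. The first of these differences was -0.01 when arrays were centred on the hybridisation spikes.

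**Figure D2:**
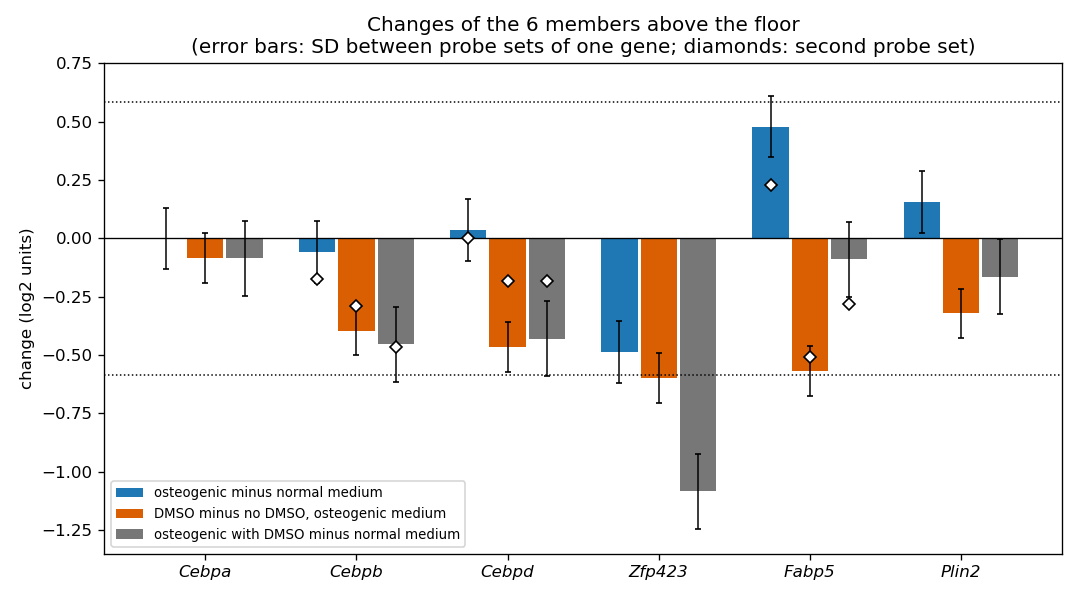
Changes in log2 units (vertical axis) of the 6 measured members in the 3 comparisons, shown as bars from 0. Error bars are the SD between probe sets of one gene (0.13, 0.11 and 0.16), diamonds a second probe set, and dotted lines 1.5-fold. All 6 orange bars (DMSO within osteogenic medium) are below 0, whereas blue bars (osteogenic medium) go both ways.

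The repeat measurement at hand was the agreement between 2 probe sets of the same gene, over 5183 genes. One probe set's change scattered with an SD of 0.13 for osteogenic against normal medium, 0.11 for DMSO within osteogenic medium and 0.16 for DMSO against normal medium. This covers noise of the probes, not of the cultures. Some pairs, such as that of Ppard, had exactly equal values on the compared arrays, as did 29.2% of all measured genes with DMSO. Such pairs add a difference of 0, which lowers the SD and raises the multiples below by an amount not measured. The DMSO differences of Zfp423, Fabp5, Cebpd, Cebpb and Plin2 were 5.62, 5.35, 4.37, 3.71 and 3.02 times that SD in size, and that of Cebpa was 0.80 times. For osteogenic medium, Zfp423 and Fabp5 were at 3.68 and 3.63 times, Plin2 at 1.19, and the 3 C/EBP genes under 1.

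Read against all measured genes, osteogenic medium gave no member a 1.5-fold change, where 1.75% of 11417 genes were at least 1.5-fold higher and 1.61% lower. With the limit lowered to a difference of 0.32, 1 of 6 members was higher (Fabp5) and 1 lower (Zfp423), against 6.02% and 5.94% of genes. The median over the 6 was 0.02, and 0 over all genes.

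With DMSO in osteogenic medium, 1 of 6 was at least 1.5-fold lower (Zfp423) and none higher, against 2.12% and 0.35% of 11423 genes. At 0.32, 4 of 6 were lower (Zfp423, Fabp5, Cebpd and Cebpb) and none higher, against 5.42% and 2.24%. Plin2 lay just inside that limit (-0.3215 against 0.3219 in size). All 6 were below 0, as were 30.3% of genes, and their median was -0.43, against 0. Ranked over all genes, 2.03% of them had a change at or below that of Zfp423, 2.21% at or below that of Fabp5, 3.12% for Cebpd and 3.98% for Cebpb. The 6 genes were picked with earlier results of these arrays known, so their shared direction is a description. The 4 unmeasured members are outside these counts.

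The osteogenic culture with DMSO against that in normal medium shares an array with each of the other comparisons and equals their sum. Here 1 of 6 members was at least 1.5-fold lower (Zfp423) and none higher, against 4.19% and 2.59% of 11422 genes. At 0.32, 3 were lower (Zfp423, Cebpb and Cebpd, the last 2 at -0.45 and -0.43) and none higher, against 9.92% and 8.09%. Fabp5, Plin2 and Cebpa stayed within 0.32 of normal medium, at -0.09, -0.16 and -0.09.

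**Figure D3:**
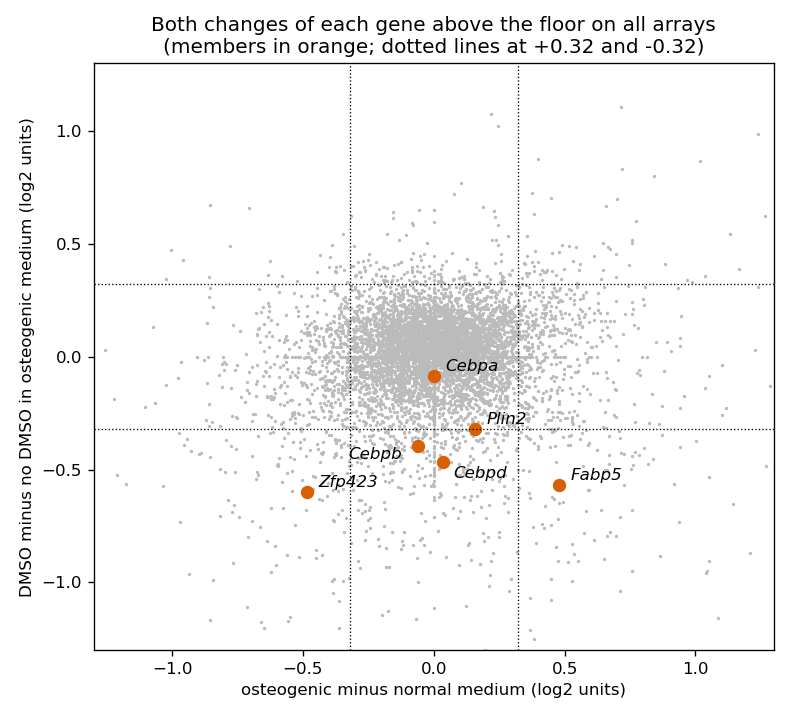
Each grey point is a gene above the floor on all arrays, by its change with osteogenic medium (horizontal axis) and with DMSO (vertical axis), both in log2 units and cropped at 1.3; members are orange and dotted lines mark differences of 0.32. Zfp423 lies lower left, Fabp5 lower right, Cebpb and Cebpd below the centre, Plin2 on the lower line and Cebpa near the centre.

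Placed by both changes, Zfp423, Fabp5, Cebpb and Cebpd took 3 patterns, while Cebpa and Plin2 fell in none of them. Zfp423 was lower by at least 0.32 in each step, as were 137 of 11203 genes above the floor on all arrays (1.22%). Fabp5 was higher by at least 0.32 and then lower by at least 0.32, as were 120 genes (1.07%). Cebpb and Cebpd differed by under 0.32 with osteogenic medium and were lower with DMSO, as were 333 genes (2.97%). Both steps contain the osteogenic array with opposite sign, so its error enters them in opposite directions. The 2 genes nearest each member by distance in this plane were Trim30d and Dkk3 for Zfp423 (distances 0.03 and 0.05), and Igfbp2, which binds insulin-like growth factors, and Mindy4 for Fabp5 (0.06 and 0.06). They were Mdm4, an inhibitor of p53, and Ifi27l2a for Cebpb (0.02 and 0.02), and Thbs1, the matrix protein thrombospondin 1, and Rgs3 for Cebpd (0.01 and 0.03). Within a distance of 0.1 lay 11 genes for Zfp423, 4 for Fabp5, 74 for Cebpb and 48 for Cebpd. With 3 arrays, such nearness is a description.

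Genes that act with or on these factors were read from fixed lists. Among nuclear receptor partners, 9 of 13 with a probe set were measured and none changed 1.5-fold in either step. Ppara, the retinoid receptor Rxrg, Nr1h3 and Ppargc1a were under the floor. Ppard, the PPAR form found in most tissues, was at 5.74 on all arrays and the PPAR partner Rxra at 6.97, 6.93 and 6.97. The Ppard value was also held exactly by A4galt in osteogenic medium. In the list of C/EBP relatives and proteins that act on C/EBP factors, all 6 measured genes were below 0 with DMSO. Their median was -0.19 and none was 1.5-fold lower, while 30.3% of all genes were below 0. This shared direction holds for the probe sets used, since the other probe set of Ddit3 differed by 0.08. Trib2, a pseudokinase that promotes breakdown of C/EBP alpha, was at 8.74, 8.51 and 7.99. Its difference with DMSO was -0.52, and -0.50 in a second probe set. With osteogenic medium, 2 of the 6 fell by at least 1.5-fold, against 1.61% of all genes. Ddit3, a C/EBP relative that blocks its partners, went from 8.81 to 7.59 (-1.22), with the other probe set at -0.63, and Trib3 from 7.90 to 6.48 (-1.42).

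Of 14 measured factors known to promote adipogenesis, none changed 1.5-fold in either step by the probe set used. The median was -0.02 with osteogenic medium and -0.0030 with DMSO. Ebf1 differed by -0.17 with DMSO in that probe set, but by -0.63 to -0.53 in its others, past 1.5-fold at the lower end. For osteogenic medium Ebf1 was equal in the first, and its others ranged from -0.22 to 0.33. Smad1, which transmits BMP signals, was higher by 0.25 and 0.37, and Klf15 was near the floor at 4.06, 3.66 and 3.06. The early factors Klf4 and Egr2 and the lipogenic factor Srebf1 differed by 0.19 or less in size in both steps. Ebf2, Klf5, Prdm16 and 3 others were under the floor. Of 21 measured factors known to restrain adipogenesis, 2 rose and 1 fell by at least 1.5-fold with osteogenic medium. The shares over all genes were 1.75% and 1.61%. With DMSO, 1 rose and 1 fell by that much, against 0.35% and 2.12% of all genes. In these steps 7 and 6 of the 21 were above 0, and 11 and 12 below. Klf2, a repressor of Pparg, rose in both steps, from 6.95 to 7.60 and 8.27. Hes1, a Notch target, rose from 5.60 to 6.64 and was then at 6.50. Ccn5, whose protein is known to hold Zfp423 protein outside the nucleus, fell in both steps, from 6.93 to 6.11 and 5.40, in the same order of media as Zfp423. Zfp521, a relative that opposes Zfp423, was at 8.31, 7.98 and 7.59, and its other probe set differed by -0.64 and -0.22. Dlk1, the preadipocyte factor Pref-1, was under the floor.

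In fatty acid binding and uptake, 15 of 22 genes with a probe set were measured. The caveolae protein Cav1 fell in both steps, from 10.44 to 9.84 and 8.91 (-0.60 and -0.92). By the probe set used for each gene, Cav1 alone of the 15 was past 1.5-fold in either step. Cav2 differed by -0.55 with DMSO, while its other probe set was equal on those 2 arrays. Lrp1, a lipoprotein receptor, differed by -0.46 with DMSO. Dbi, the acyl-CoA binding protein, was higher by 0.43 in osteogenic medium and equal with DMSO. Its other probe sets gave 0.45 to 0.60 for osteogenic medium, past 1.5-fold at the upper end, and -0.12 to -0.04 with DMSO. The ligase Acsl3, like Fabp5, was highest in osteogenic medium, at 7.76, 8.16 and 7.81, though its other probe sets ranged from -0.13 to 0.47 for osteogenic medium. Fabp3, the heart form, was at 5.76, 6.14 and 5.96, and Fabp7, the brain form, passed the floor only in osteogenic medium, at 3.88.

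Of 8 measured genes that control lipases, Angptl4, an inhibitor of the Lpl enzyme, rose by 0.60 with osteogenic medium, from 3.90 to 4.50, near the floor. Pcsk6, a protease that cleaves Lpl and its inhibitors, rose by 0.60 with DMSO, from 5.06 to 5.65. Gpihbp1, which carries Lpl across endothelium, was at 3.66 on all arrays. Of 18 measured genes of lipid droplet coats and turnover, 12 were exactly equal between the DMSO and osteogenic arrays. The share over all measured genes was 29.2%. Of the rest, 4 were below 0 and 2 above. Only 1 was at least 1.5-fold lower, against 2.12% of all genes, namely G0s2, an inhibitor of the triglyceride lipase Pnpla2. It was at 5.59, 5.01 and 3.55, a difference of -1.46 with DMSO. Its last value lay just above the floor. Plin3, the other broadly made perilipin, was at 7.56, 7.50 and 7.45, and Pnpla2 at 5.60 throughout. Of 13 measured PPAR response genes, 1 was at least 1.5-fold higher with osteogenic medium, against 1.75% of all genes, namely Angptl4, also on this list. With DMSO, 1 was at least 1.5-fold lower, against 2.12% of all genes. This was Pdk4, which holds back glucose oxidation and fell from 7.27 to 6.46 (-0.81). The fatty acid oxidation genes Acadvl, Acaa2 and Cpt1a were higher with DMSO by 0.36, 0.31 and 0.27, but the other probe sets of Acaa2 gave 0.01 to 0.07 and those of Cpt1a 0.0040 to 0.18. In all, 9 of the 13 were above 0 with DMSO, 2 were below and 2 equal, against 40.5%, 30.3% and 29.2% of all measured genes.

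**Figure D4:**
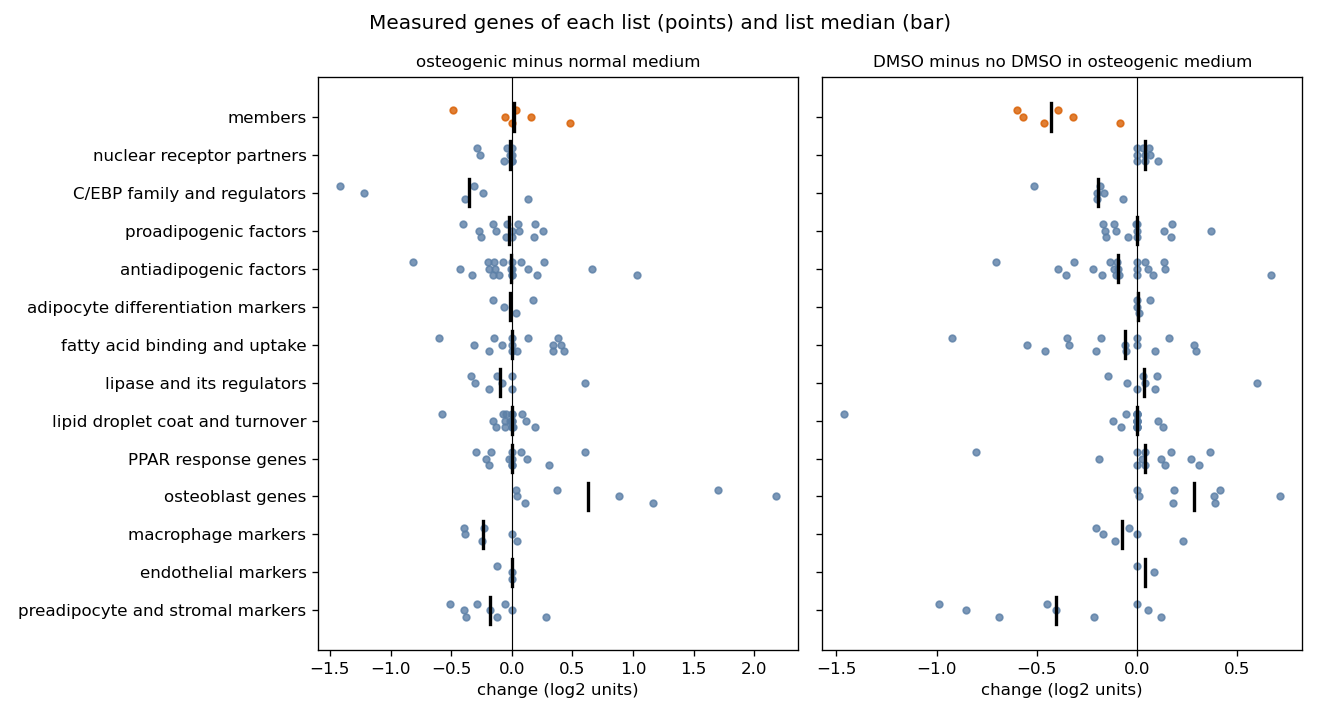
Changes in log2 units (horizontal axes) of the measured genes of each list (vertical axis), for osteogenic against normal medium on the left and DMSO within osteogenic medium on the right. Points are genes, members in orange, and bars the list medians. On the right the bar of the members lies at -0.43 and that of the preadipocyte and stromal markers at -0.40, while that of the osteoblast genes lies at 0.28.

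Markers of other cells were read beside these values, since in bulk RNA fewer cells of a type and less RNA per cell cannot be told apart. Of 10 preadipocyte and stromal markers with a probe set, 9 were measured, and 3 fell with DMSO by at least 1.5-fold, Thy1 (-0.99), Cd34 (-0.85) and Lum (-0.69), against 2.12% of all genes. None rose by 1.5-fold, 2 were above 0 and 6 below, and the list's median was -0.40. Pdgfra, a receptor of fat cell progenitors, was at 8.84, 8.32 and 7.92, in the order of Zfp423, though its other 2 probe sets differed by -0.15 and -0.07 with DMSO. The mean over the 8 markers above the floor on all arrays was 8.32 in normal medium, 8.13 in osteogenic medium and 7.69 with DMSO. Their part in the differences of Zfp423 and the C/EBP genes was not tested. Macrophages, which make Cd36, Fabp4, Fabp5 and Lpl, were read by 12 markers. The genes Ptprc, Cd68, Adgre1, Itgam, Tyrobp and Mrc1 were under the floor on all arrays. The 5 markers above it on all arrays, Lyz2, Laptm5, Csf1r, Cd14 and Fcer1g, averaged 4.79, 4.60 and 4.49. Lyz2 was at 5.96, 5.57 and 5.40 and Laptm5 at 4.75, 4.36 and 4.15, in the order of Zfp423. The other probe set of Laptm5 differed by 0 with osteogenic medium and 0.03 with DMSO. Spi1 was above the floor only in normal medium and with DMSO, at 3.77. Of 10 endothelial markers, 7 were under the floor on all arrays as well, namely Pecam1, Cdh5, Tek, Tie1, Emcn, Vwf and Cldn5. Egfl7 (4.97, 4.97 and 5.05) and Gpihbp1 (3.66 throughout) were above it, and Kdr was above it only in normal medium, at 3.66. Osteoblast genes went the other way from the members, with 7 of 8 above 0 with DMSO, against 40.5% of all genes, and a median of 0.28. The direction holds for the probe sets used. Other probe sets of Col1a1 and Col1a2 differed by -0.0068 and by -0.45 to 0.04, and that of Ibsp by 0.56. Sparc, at 0.0095, was barely above 0. Alpl, the alkaline phosphatase of mineralization, rose by 0.71.

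The arrays had close medians, 3.54 to 3.58, and 22483 to 22598 probe sets above the floor. Of probe sets other than controls, 37.4% had exactly equal values on all 3 arrays, as did 7 of the 19 member probe sets, all under the floor. Above the floor, unrelated genes also shared exact values. That of Pnpla2 (5.60) was held by Hes1 in normal medium, and that of Gpihbp1 (3.66) by Dpp4 in normal medium. The 4.06 of Slc2a4 in osteogenic medium was held by Ucp3. Equal values of this kind do not show a stable level. The median difference of the 18 hybridisation spikes was 0.10 for osteogenic against normal medium and -0.03 with DMSO. The 3' end of Actb exceeded its 5' end by 0.27, 0.20 and 0.18, a check on RNA quality. When each array was centred on the median level of its spikes, all measured genes shifted by a median of -0.17 for osteogenic against normal medium, a larger step than the 0.10 found spike by spike. Plin2 and Cebpd, at 0.16 and 0.04 as deposited, were then at -0.01 and -0.13; the difference of Plin2, unlike that of Cebpd, is larger than the 0.10 found spike by spike. Fabp5 remained higher (0.31) and Zfp423 lower.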

How the data were processed

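Expression was read from 45101 probe sets on 3 arrays. The deposited values are taken as log2 from their range of 0.652 to 13.4, and how the authors summarised and normalized them is not given in the sources used here. Per the labels, RNA with an integrity number over 9.5 was accepted. The platform annotation, dated 2016, gave 1 symbol to 34945 probe sets, several to 932 and none to 9160, and only the first were used.

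For each gene the probe set of highest mean log2 value was taken, and all probe sets of the members are given. Values under the floor, the 50th percentile of pooled probe sets, were raised to it. A change was called at 1.5-fold, and a lower limit of 0.32 in log2 units is also given. All members are named, with the 2 nearest genes of members past that lower limit. For each related list the rule was up to 4 genes with the largest changes and those past 1.5-fold. Not every gene that met this rule is named, and Ncoa2, Ibsp and Pth1r are among those left out. Genes outside the rule were named after their values were seen. Members, lists and limits were chosen with earlier results of these data known. No test was possible with 1 array per group, whose number limits the precision. Where no repeat exists, the SD between probe sets is given. Alternatives changed the fold, floor, scaling and probe set rule. Software was Python 3.11.15 (pandas 2.3.3, numpy 2.4.6, matplotlib 3.10.9) and limma 3.58.1 in R 4.3.3, and the computation was checked on simulated data.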

Additional observations from a re-analysis of the deposited data

How the results depend on the processing

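The direction of the DMSO difference within osteogenic medium was kept for all 6 measured members under all 8 alternatives of floor, scaling and probe set. The same held for the DMSO culture against normal medium. Of the values for single genes under these alternatives, 137 moved by less than the SD between probe sets and 7 by more, 6 of them under spike centring. The 137 include values fixed in advance. Probe sets used for the 6 members lay above every floor tried, and none ended in _x_at or _s_at. The 40th and 60th percentile floors, no floor, and leaving out such probe sets therefore changed no value of these genes (with DMSO, Zfp423 -0.60). The direction with DMSO was tested by quantile normalization, cyclic loess and spike centring (Zfp423 -0.57, -0.61 and -0.57). The mean of probe sets tested it for Cebpb, Cebpd and Fabp5 only (-0.34, -0.32 and -0.54).

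At the lower limit of 0.32, the number of members called was 1 higher and 1 lower with osteogenic medium, 4 lower with DMSO, and 3 lower for DMSO against normal medium. At 2-fold it was 0 lower with DMSO in osteogenic medium. Quantile normalization gave 0 lower there, and cyclic loess 2. Centring on the spikes gave 1 lower with osteogenic medium, 0 with DMSO and 2 for DMSO against normal medium, and a median of -0.15 with osteogenic medium. Without a floor, which adds the 4 members under it, the medians were -0.20 with DMSO and -0.088 for DMSO against normal medium. No paired analysis was possible because each medium had 1 array. Signal near background limits Pparg, Fabp4, Lpl and Cd36, and the spread between cultures was not measured.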
